A study of Mus musculus with 16 samples.

Results

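Chemokines and their receptors were followed in mammary adipose tissue lying opposite an E0771 tumor, in RNA-Seq libraries of 16 mice. The genes were chosen by symbol. They comprised the CC, CXC, XC and CX3C ligands, the receptors of each family and the atypical receptors, with Ccl19, Ccl21a, Cxcl13, Ccr7 and Cxcr5 left out, which gave 51 of the 23179 listed genes. Of these, 32 were ligand genes and 19 were receptor genes by symbol. The ligand gene Cxcl11 is annotated as a polymorphic pseudogene.

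All mice were wild-type females of the C57BL/6NCrl strain, given as C57BL/6N in the labels, and were 8 weeks old when obtained. Each group held 4 mice with 1 library each. CON-LFD mice were fed a low-fat control diet throughout and had sham surgery. DIO-HFD mice were made obese on a 60% high-fat diet, stayed on it and had sham surgery. DIO-LFD mice were made obese in the same way, had sham surgery and then received the low-fat diet. DIO-VSG mice were made obese in the same way and underwent vertical sleeve gastrectomy, removal of a large part of the stomach, together with the low-fat diet. E0771 cells, a mouse mammary cancer line, were placed in mammary fat pad number 4 of every mouse 22 weeks after the first randomization. The fat pad on the other side, number 9, was collected once the tumors had reached endpoint. Every group therefore carried a tumor, and surgery was given only together with the diet. The labels also carry E0771 and mammary cancer as cell line and cell type, although the tissue they name is the normal mammary tissue opposite the tumor. All 8 adipocyte markers examined (among them Adipoq, Plin1 and Lep) were found in every group, with summed levels of 466600 to 1678000 normalized counts per library.

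Chemokines are small secreted proteins that guide the movement of leukocytes, and their receptors are G protein-coupled receptors carried mainly by those leukocytes. Atypical receptors bind chemokines without G protein signaling and shape how much ligand is free. In adipose tissue, chemokines such as Ccl2 are known for their part in the recruitment of monocytes and macrophages in obesity, whereas Cxcl12 and Cxcl14 are made by stromal cells and adipocytes in lean tissue too.

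The libraries held 46907377 to 57610899 reads. Normalized counts are reads divided by the size factor of the library. The content of lymphocyte RNA differed widely among them. A marker score, the mean over 15 B cell markers of the log2 level minus each gene's mean over the 16 libraries, was -5.55 and -3.48 in CON-LFD replicates 2 and 4 and -2.38 and -4.25 in DIO-HFD replicates 2 and 3, against -0.16 to 2.28 in the other 12 libraries. Summed B cell markers ranged from 671 to 106200 normalized counts in CON-LFD, from 1965 to 137900 in DIO-HFD, from 25500 to 57800 in DIO-LFD and from 93680 to 108900 in DIO-VSG. Summed macrophage markers ranged from 22300 to 163100 in CON-LFD and from 37170 to 87800 in DIO-VSG, with the highest score, 1.24, in CON-LFD replicate 4 and scores of -0.99 and -1.01 in DIO-VSG replicates 1 and 3. In bulk tissue, fewer cells of a type and less RNA per cell cannot be told apart. For members of the chosen set, results that rest on the 4 libraries with the lowest B cell score are given with and without them.

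Levels were compared between genes only per length, as normalized counts divided by exon length and scaled as TPM are. On that scale the most abundant genes of the set were Cxcl14 (173, mean of 16 libraries), a ligand made by epithelium and fat, and Ccl6 (142), a macrophage-derived ligand of Ccr1. Ccl5 (138), a product of T cells and NK cells, Ccl11 (125), the eosinophil attractant eotaxin, and Cxcl12 (120), the ligand of Cxcr4, came next. Cxcr4 was the most abundant receptor (89.1). The lowest levels were those of Cxcl3 (0.114), Ccl1 (0.151) and Cxcl5 (0.186).

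**Figure D1:**
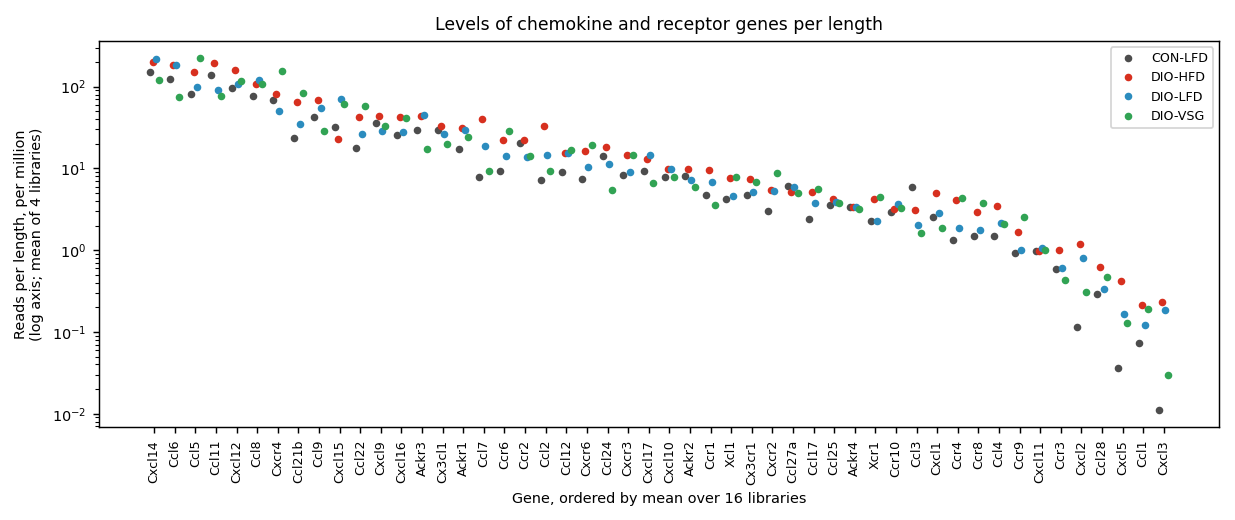
Mean level of 50 genes of the set per length in each group (reads per length on the TPM scale, log axis), ordered by the mean over 16 libraries. Each point is the mean of 4 libraries, and levels run from 173 for Cxcl14 down to 0.114 for Cxcl3.

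The genes of the set varied more between mice than most genes did. The median SD of the log2 level over the 16 libraries was 0.94 for the 49 members that passed the filter on low values, against 0.39 for all 21218 genes tested. The steadiest was Ccl25, a thymus and gut ligand, with 414 to 627 normalized counts (SD 0.15 on the log2 scale). Cxcl12 followed with 12182 to 25985 (SD 0.28). The widest range was that of Ccr6, a receptor of B cells and Th17 cells, which ran from 4.24 in CON-LFD replicate 2 to 2049 in DIO-HFD replicate 1 (SD 2.82).

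**Figure D2:**
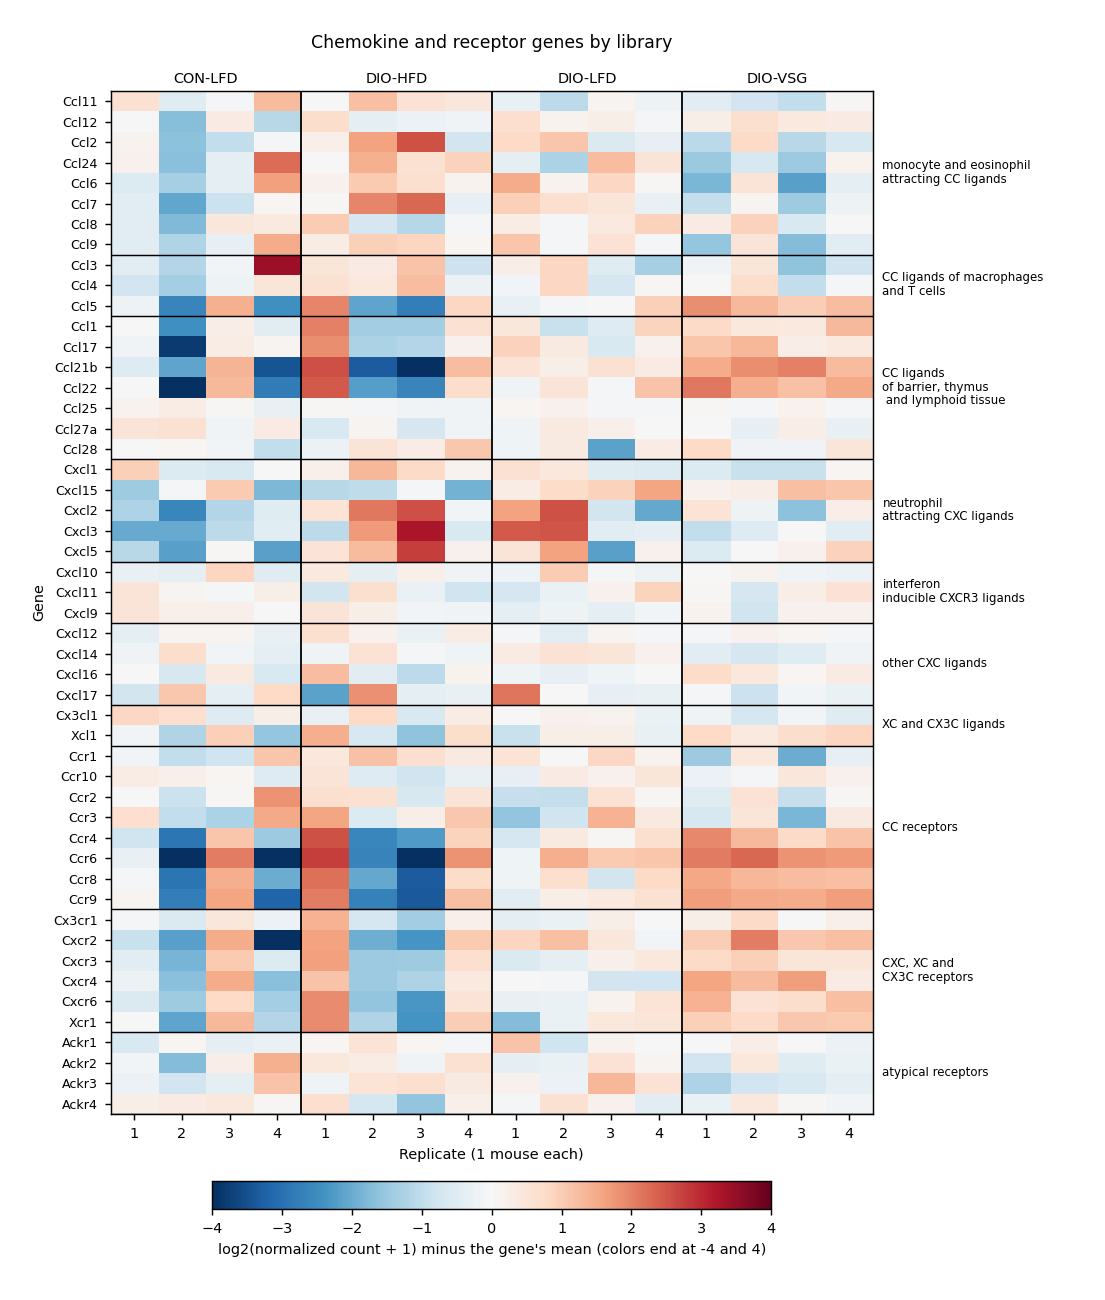
Level of 50 genes of the set in each of the 16 libraries, as log2(normalized count + 1) minus the gene's mean, grouped by role. Ccr6 and Ccl22 are low in CON-LFD replicates 2 and 4 and in DIO-HFD replicates 2 and 3, whereas Ccl2, Ccl7 and Cxcl2 are high in DIO-HFD replicates 2 and 3.

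In the main fit, of all 16 libraries without weights or covariates, no chemokine or receptor gene passed an adjusted limma p of 0.05 in any of the 6 comparisons. Some passed with library weights or in fits of fewer libraries, given below beside the share of all genes. For the main fit, members are therefore counted at an unadjusted limma p below 0.05 and read against the share of all genes that did the same. In DIO-HFD against CON-LFD, which addressed persistent obesity, 4 of 49 members were higher and 1 lower, against 5.23% and 7.66% of all genes. The 4 higher genes were Ccl2, Ccl7, Cxcl2 and Cxcl3 and the lower one was Ccl27a. Cxcl3 passed the filter on low values only through 4 libraries of DIO-HFD and DIO-LFD in which it was high, so its calls in DIO-HFD and in DIO-LFD against CON-LFD carry no weight, and 3 and 2 higher members are left without it. At an adjusted p of 0.05, 0.0377% of all genes passed in this comparison and 0.00471% in DIO-LFD against CON-LFD. In DIO-VSG against DIO-HFD, 2 members were higher (Cxcl15 and Cxcr4, background 5.05%) and 9 were lower (Ackr3, Ccl6, Ccl7, Ccl9, Ccl11, Ccl24, Ccr1, Cxcl1 and Cxcl14, background 8.12%). In DIO-LFD against DIO-HFD, Cxcl15 was higher and Ccl11 lower, 1 member each, against 5.37% and 3.16% of all genes.

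The other 3 comparisons do not involve DIO-HFD. In DIO-VSG against DIO-LFD, which set surgical against dietary weight loss, 1 member was higher (Cxcr4, background 4.3%) and 4 were lower (Ackr3, Ccl6, Ccr1 and Cxcl14, background 5.41%). In DIO-VSG against CON-LFD, 11 members were higher (background 10.2%) and 2 lower (background 7.55%). In DIO-LFD against CON-LFD, 3 were higher (Ccl12, Cxcl3 and Cxcl15, background 3.23%) and 1 lower (Cxcl9, background 3.03%). Comparisons that name the same group share its 4 libraries and are not independent.

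The median log2 fold change of the 49 members was 0.34 in DIO-HFD against CON-LFD, where 38 of 49 were above 0, and 0.02 over all genes tested, of which 52.7% were above 0. It was -0.09 in DIO-VSG against DIO-HFD and 0.07 in DIO-LFD against DIO-HFD, with 24 and 26 of 49 above 0, against 52.5% and 51.6% of all genes. The medians of the other comparisons were -0.04 in DIO-VSG against DIO-LFD, 0.21 in DIO-VSG against CON-LFD and 0.37 in DIO-LFD against CON-LFD, with 23, 30 and 36 of 49 above 0, against 47.3%, 47.8% and 53.1% of all genes. The spread of the member median between replicates was 0.35 on the log2 scale.

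**Figure D3:**
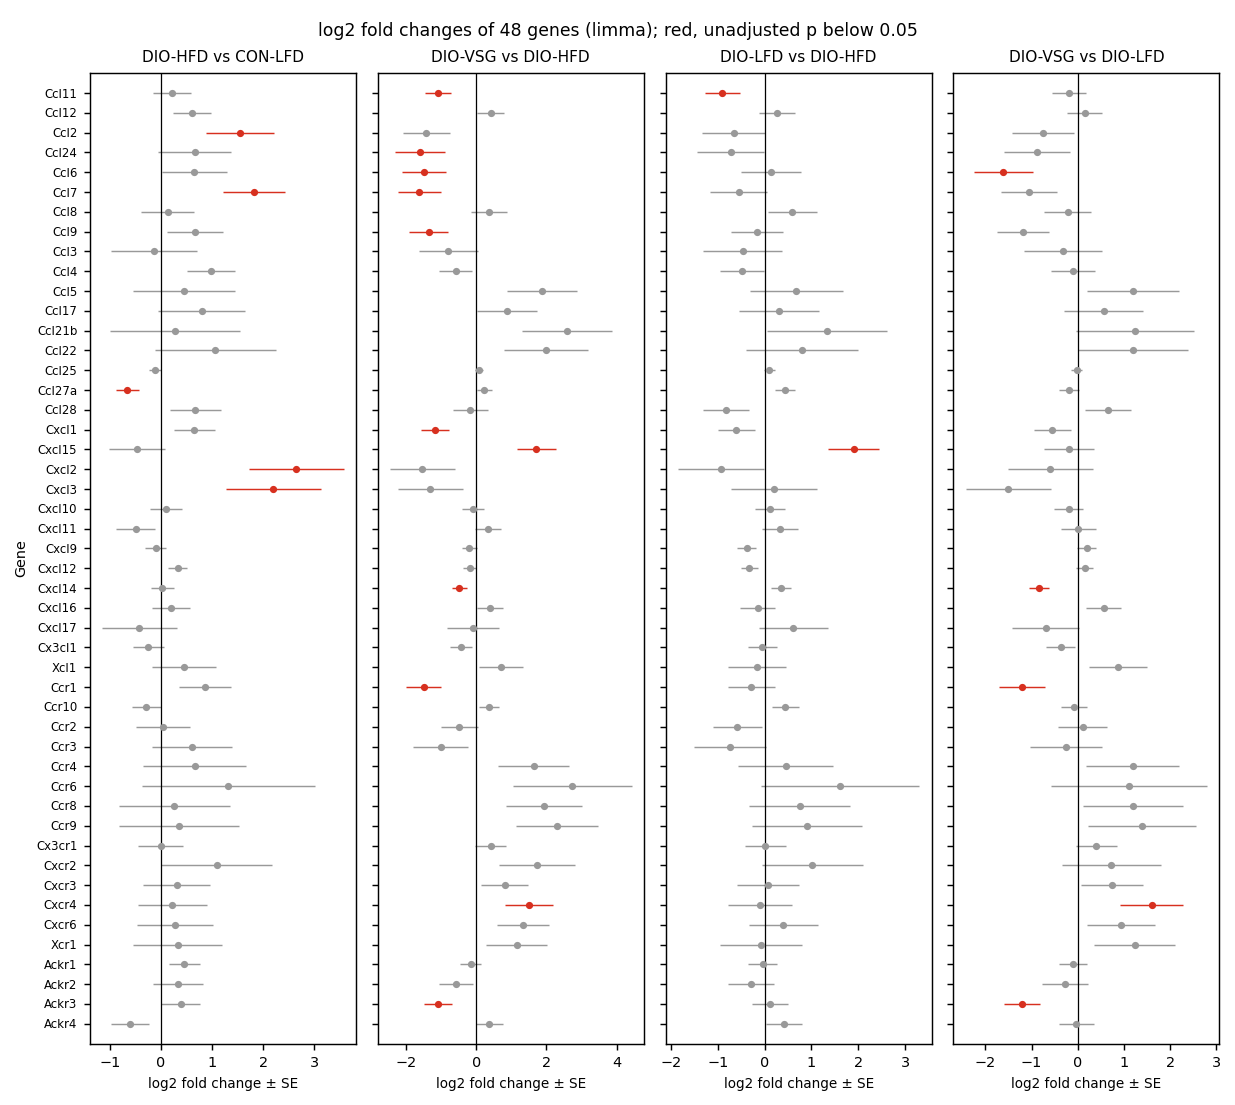
log2 fold change ± SE (limma) of 48 tested genes in 4 comparisons, with genes at an unadjusted p below 0.05 in red. Cxcl15 lies at 1.71 and 1.90 in DIO-VSG and DIO-LFD against DIO-HFD, and Ccl7 at 1.82 in DIO-HFD against CON-LFD.

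The CXC ligands that act on neutrophils through Cxcr2 lie together on chromosome 5. Cxcl1, Cxcl2 and Cxcl3 are classic products of inflamed stroma and macrophages, and Cxcl15, also known as lungkine, attracts neutrophils in the lung. Their promoters are printed because the called log2 fold changes of Cxcl15 and Cxcl1 in DIO-VSG against DIO-HFD had opposite signs, with Cxcl2 and Cxcl3 shown as their neighbors. Each sequence is the 250 bases before the start site in RefSeq (GRCm38.p6), read 5′ to 3′ on the strand of the gene. Capitals mark matches to the NF-kB motif, GGGA and TTCC with 2 bases of any kind between them, searched on both strands.
Cxcl1, chr5:90890995-90891244, plus strand: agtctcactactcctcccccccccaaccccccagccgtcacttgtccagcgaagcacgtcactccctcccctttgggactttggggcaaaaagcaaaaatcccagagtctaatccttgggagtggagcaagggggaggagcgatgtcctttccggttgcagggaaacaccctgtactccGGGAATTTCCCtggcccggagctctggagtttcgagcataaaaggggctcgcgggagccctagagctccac
Cxcl2, chr5:90903649-90903898, plus strand: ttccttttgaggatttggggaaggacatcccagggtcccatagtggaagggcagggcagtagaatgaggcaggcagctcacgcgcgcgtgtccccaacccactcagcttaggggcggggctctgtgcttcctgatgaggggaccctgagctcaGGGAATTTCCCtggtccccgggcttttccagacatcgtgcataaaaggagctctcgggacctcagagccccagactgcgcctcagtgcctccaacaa
Cxcl3, chr5:90785851-90786100, plus strand: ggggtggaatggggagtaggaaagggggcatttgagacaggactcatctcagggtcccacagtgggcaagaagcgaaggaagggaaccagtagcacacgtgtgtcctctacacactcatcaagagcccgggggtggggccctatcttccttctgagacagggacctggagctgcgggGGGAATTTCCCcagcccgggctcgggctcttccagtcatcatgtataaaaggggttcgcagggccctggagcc
Cxcl15, chr5:90794284-90794533, plus strand: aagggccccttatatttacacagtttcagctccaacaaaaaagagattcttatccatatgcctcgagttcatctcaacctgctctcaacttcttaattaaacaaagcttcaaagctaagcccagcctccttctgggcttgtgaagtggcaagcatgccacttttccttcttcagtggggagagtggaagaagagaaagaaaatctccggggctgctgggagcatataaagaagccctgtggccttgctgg
The promoters of Cxcl1, Cxcl2 and Cxcl3 hold the same 11 bases, in which a match on each strand overlaps the other, beginning 71, 97 and 73 bases before the start site. The Cxcl15 window holds no match to these letters. Of all 32851 promoters of this length, 397 (1.21%) hold the motif. Of the 39 members with a promoter in the table, 6 do, namely Ccl1, Ccr3, Cxcl1, Cxcl2, Cxcl3 and Cxcl10. A match is a description of the sequence only.

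Cxcl2 was higher in every DIO-HFD mouse than in every CON-LFD mouse. It had 4.41, 1.06, 4.61 and 8.04 normalized counts in CON-LFD, compared with 17.6, 53.1, 74.2 and 10.7 in DIO-HFD. In DIO-LFD it had 37.1, 73.4, 6.67 and 2.04, and in DIO-VSG 17.6, 9.89, 3.08 and 14.3. Replicates 2 and 3 of DIO-HFD and replicates 1 and 2 of DIO-LFD were the high ones, and the weight loss groups overlapped both others. The log2 fold change in DIO-HFD against CON-LFD was 2.65 (SE 0.93, adjusted p = 0.265), with an exact permutation p of 0.0286, the smallest that 4 against 4 libraries can give and the value that any gene without overlap between groups has. Groups of 1.76% of all genes did not overlap in that direction and of 3.0% in the other, in which no member did. Leaving out the 4 libraries of lowest B cell score the value was 1.42 (adjusted p = 0.712). The unadjusted call was lost there. At this depth Cxcl2 rests on few reads, and 3 libraries held 3 reads or fewer.

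Cxcl3 was at or under 3 reads in 12 of 16 libraries, and its fold change is not given because it depends on the count of 1 added before the logarithm. The libraries above that floor were replicates 2 and 3 of DIO-HFD, with 12.2 and 37.1 normalized counts, and replicates 1 and 2 of DIO-LFD, with 20.7 and 21.8. These were also the 4 libraries with the highest Cxcl2. Cxcl2 and Cxcl3 share 4.52% and 2.75% of their 76-base words with each other, so a small part of their reads cannot be assigned. Cxcl5, whose product binds the same receptor, did not pass the filter and was highest at 29.5 normalized counts, again in DIO-HFD replicate 3.

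Cxcl1 was lower after surgery than in persistent obesity. It had 104, 224, 152 and 98.3 normalized counts in DIO-HFD and 61.2, 47.7, 48.2 and 94.3 in DIO-VSG, so that the groups did not overlap (background 4.22%) but the nearest values were close. CON-LFD had 175, 61.5, 58.1 and 88.4, and DIO-LFD 138, 120.0, 62.9 and 61.3. Both of these overlapped DIO-HFD and DIO-VSG. Its log2 fold change in DIO-VSG against DIO-HFD was -1.16 (SE 0.40, adjusted p = 0.297, exact permutation p = 0.0286). Without the 4 libraries of lowest B cell score it was -0.73 (adjusted p = 0.807), and the unadjusted call was lost.

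Cxcl15 was higher in both weight loss groups than in DIO-HFD. It had 649, 685, 1340.3 and 378 normalized counts in DIO-HFD, 1700.0, 2345, 2642 and 4153 in DIO-LFD and 1579, 1675, 3224 and 3046 in DIO-VSG. All 8 libraries of the weight loss groups were above all 4 DIO-HFD libraries. CON-LFD spread over both ranges, with 525, 1330.5, 2868 and 405. The log2 fold change against DIO-HFD was 1.90 in DIO-LFD (SE 0.55, adjusted p = 0.424) and 1.71 in DIO-VSG (SE 0.55, adjusted p = 0.274), each with an exact permutation p of 0.0286. Groups of 3.01% and 2.37% of all genes did not overlap in that direction in the same comparisons, and in DIO-LFD against DIO-HFD 1.5% did so in the other. DIO-VSG and DIO-LFD differed by -0.19 (SE 0.55, adjusted p = 0.883).

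The Cxcl15 difference did not rest on a single library. It kept a limma p below 0.05 in each of the 16 fits that left out 1 library, with a log2 fold change of 1.61 to 2.22 in DIO-LFD and 1.42 to 2.03 in DIO-VSG against DIO-HFD. Leaving out the 4 libraries of lowest B cell score it was 2.38 in DIO-LFD (adjusted p = 0.154) and 2.19 in DIO-VSG (adjusted p = 0.685), and only 2 DIO-HFD libraries then remained. Markers of mammary epithelium moved in part with Cxcl15. Of 7 markers (Krt8, Krt18, Epcam, Krt14, Krt5, Elf5 and Csn3), 4 were higher at an unadjusted limma p below 0.05 in DIO-LFD than in DIO-HFD (background 5.37%) and 1, Krt18, in DIO-VSG (background 5.05%). Skeletal muscle markers had median log2 fold changes over 4 genes of 2.93 in DIO-LFD and 2.72 in DIO-VSG against DIO-HFD, 4 and 3 of 4 above 0, and Myh4 called in each. Their summed level was 622.7 to 2897 normalized counts in DIO-HFD, 1253 to 108000 in DIO-LFD and 274 to 18170 in DIO-VSG, and these ranges overlapped. The summed epithelial markers were at 20820 to 40770 normalized counts in DIO-HFD, 28440 to 83240 in DIO-LFD and 30410 to 44750 in DIO-VSG, so the groups overlapped, and at 30600 to 60710 in CON-LFD. Epithelial scores of the libraries, in the order of the replicates, were -0.65, 0.83, 0.53 and 0.32 in DIO-LFD. They were -0.47, 0.22, -0.95 and -0.17 in DIO-HFD. The part of epithelial or muscle content in the result was not tested. Against CON-LFD, Cxcl15 gave 1.44 in DIO-LFD (adjusted p = 0.693) and 1.25 in DIO-VSG (adjusted p = 0.27), with overlapping groups. Both unadjusted calls were lost without the 4 libraries of lowest B cell score. With the B cell, T cell or macrophage score as a covariate, the call was kept in DIO-LFD and lost in DIO-VSG.

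**Figure D4:**
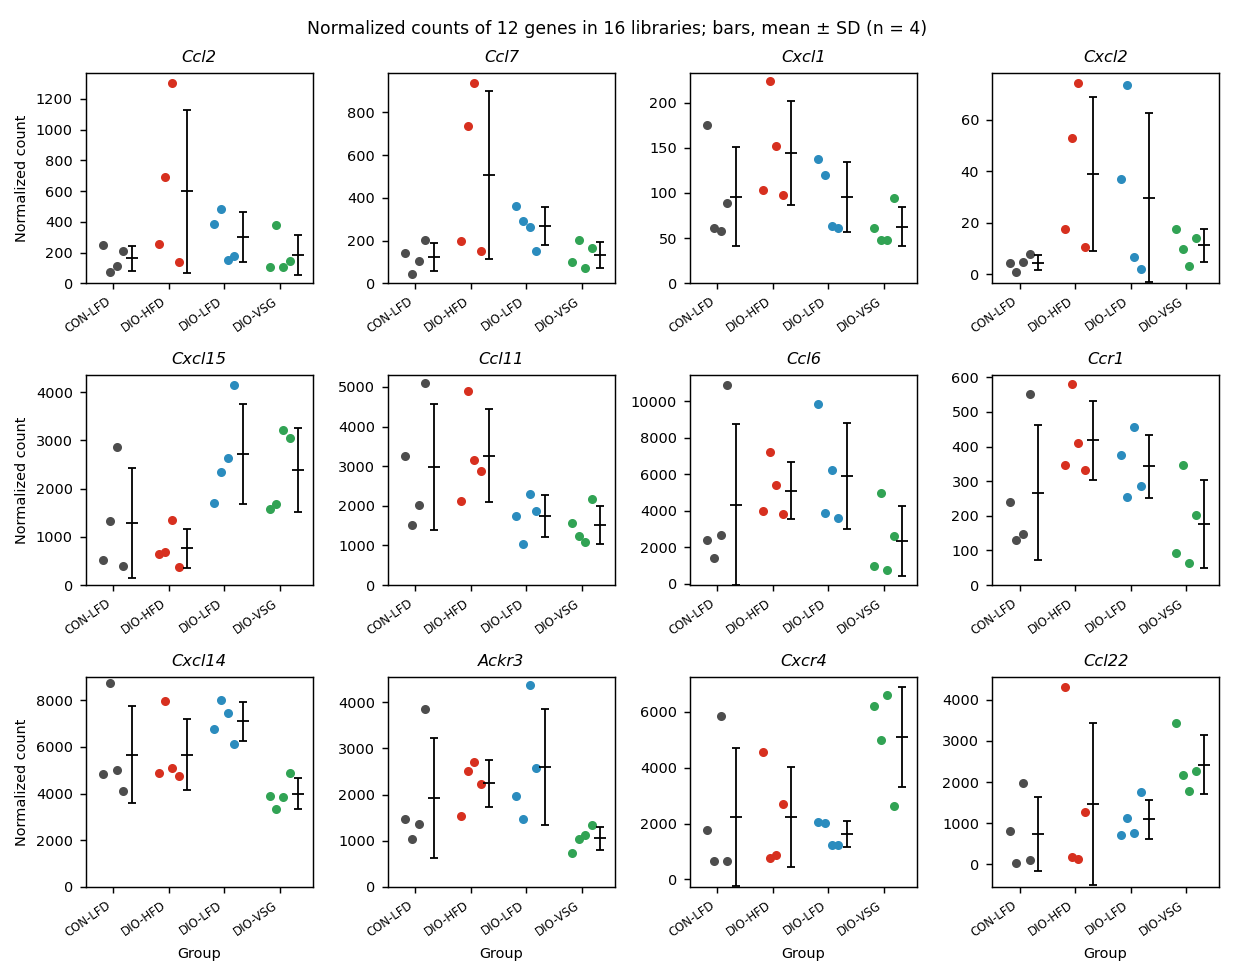
Normalized counts of 12 genes in the 16 libraries by group (each point 1 mouse, bars mean ± SD, n = 4). All DIO-LFD and DIO-VSG points of Cxcl15 lie above all DIO-HFD points, and the 2 high DIO-HFD points of Ccl2, 693 and 1304, are from replicates 2 and 3.

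The monocyte-attracting CC ligands lie in a cluster on chromosome 11. Ccl2 (chr11:82035571-82037453, plus strand, GRCm38), the main ligand of Ccr2, and Ccl7 (chr11:82045712-82047525, plus strand), a second ligand of Ccr2, were the members of this group called in obesity. Ccl2 had 248, 72.1, 113 and 212 normalized counts in CON-LFD, compared with 258, 693, 1304 and 136 in DIO-HFD. DIO-LFD had 385, 484, 149.6 and 179 and DIO-VSG 107, 381, 105 and 143. The high libraries were DIO-HFD replicates 2 and 3, and of the other 2 replicate 4 lay within the CON-LFD range and replicate 1 just above its highest library. By limma, the log2 fold change in DIO-HFD against CON-LFD was 1.55 (SE 0.67, adjusted p = 0.356, exact permutation p = 0.1143).

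Ccl7 was high in the same DIO-HFD libraries as Ccl2. It had 140.2, 43.5, 102 and 201 normalized counts in CON-LFD. The DIO-HFD libraries had 196, 736, 939 and 149. Ccl7 was at 364, 293, 265 and 153 in DIO-LFD and at 97.5, 203, 69.8 and 163 in DIO-VSG. DIO-HFD replicates 2 and 3 again stood above all other libraries. The log2 fold change was 1.82 in DIO-HFD against CON-LFD (SE 0.61, adjusted p = 0.254) and -1.61 in DIO-VSG against DIO-HFD (SE 0.61, adjusted p = 0.315), and the groups overlapped in both.

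Both values rest on the 2 DIO-HFD libraries that are low in B cell markers. Without the 4 libraries of lowest B cell score, the log2 fold change in DIO-HFD against CON-LFD was 0.16 for Ccl2 (adjusted p = 0.952) and 0.51 for Ccl7 (adjusted p = 0.739). For Ccl7 in DIO-VSG against DIO-HFD it was -0.48 (adjusted p = 0.882). The unadjusted calls were lost there. Adjusted for the B cell score with all libraries kept, the values in DIO-HFD against CON-LFD were 1.72 for Ccl2 (adjusted p = 0.231) and 1.97 for Ccl7 (adjusted p = 0.17). With the macrophage score they were 1.26 (adjusted p = 0.538) and 1.44 (adjusted p = 0.392), and the unadjusted call of Ccl2 was lost. The Ccl7 call in DIO-VSG against DIO-HFD was lost with each score, at -1.26 for B cells, -1.05 for T cells and -0.99 for macrophages. Ccr2 itself, the receptor of inflammatory monocytes, gave 0.04 in DIO-HFD against CON-LFD (SE 0.53, adjusted p = 0.982).

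Ccl11, which recruits eosinophils through Ccr3, was lower in both weight loss groups than in DIO-HFD. It had 2119.9, 4905, 3164 and 2878 normalized counts in DIO-HFD, 1740.4, 1032, 2307 and 1858 in DIO-LFD and 1564, 1239, 1078 and 2183 in DIO-VSG. Only the lowest DIO-HFD library fell within the range of the weight loss groups. CON-LFD had 3256, 1522, 2015 and 5098 and covered nearly the whole range. Its log2 fold change was -1.09 in DIO-VSG (SE 0.37, adjusted p = 0.292) and -0.90 in DIO-LFD (SE 0.37, adjusted p = 0.53), each with an exact permutation p of 0.0571. Leaving out the 4 libraries of lowest B cell score the values were -0.76 (adjusted p = 0.722) and -0.57 (adjusted p = 0.348), and both unadjusted calls were lost. Macrophage and stromal progenitor markers were lower in DIO-VSG than in DIO-HFD too, with medians of -0.64 (1 of 15 above 0, Trem2 called) and -0.85 (1 of 5 above 0). Summed macrophage markers were at 60280 to 86260 normalized counts in DIO-HFD and 37170 to 87800 in DIO-VSG. With the macrophage score as a covariate Ccl11 gave -0.73 in that comparison (adjusted p = 0.658), where its unadjusted call was lost, and -0.81 in DIO-LFD against DIO-HFD (adjusted p = 0.547), where it was kept. The part of stromal content was not tested.

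Ccl24, a second eosinophil attractant, had 210.1, 552, 318 and 392 normalized counts in DIO-HFD and 73.6, 133, 74.9 and 225 in DIO-VSG. The highest DIO-VSG library lay just above the lowest DIO-HFD library. By limma, the log2 fold change was -1.60 (SE 0.72, adjusted p = 0.367). Ccl24 gave -1.33 without the 4 libraries of lowest B cell score (adjusted p = 0.74), and its unadjusted call was lost. It was lost with the B cell (-1.56), T cell (-1.44) and macrophage (-0.67, adjusted p = 0.675) scores as well. Ccr3, the eosinophil receptor for both, gave -1.01 in the same comparison (SE 0.78, adjusted p = 0.515).

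Ccl6 and Ccl9, macrophage-derived ligands of Ccr1 that are neighbors on chromosome 11, and Ccr1 itself, a receptor of monocytes and neutrophils, had the same order of libraries in DIO-VSG. Ccl6 had 3959.5, 7221, 5397 and 3839.6 normalized counts in DIO-HFD, 9865, 3886, 6225 and 3612 in DIO-LFD and 974, 4942, 771 and 2634 in DIO-VSG. Replicates 1 and 3 of DIO-VSG were the lowest of all 16 libraries, whereas replicate 2 lay within the range of the other groups. The log2 fold change was -1.48 against DIO-HFD (SE 0.64, adjusted p = 0.355) and -1.62 against DIO-LFD (SE 0.64, adjusted p = 0.509). In CON-LFD, replicate 4 held 10887 and the other 3 libraries 1400.4 to 2650.3.

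Ccr1 had 347, 579.9, 409 and 333 normalized counts in DIO-HFD, 374, 254, 456 and 286 in DIO-LFD and 93.4, 345, 64.7 and 203 in DIO-VSG. As for Ccl6, the lowest were replicates 1 and 3 of DIO-VSG. Its log2 fold change was -1.50 against DIO-HFD (SE 0.50, adjusted p = 0.288) and -1.21 against DIO-LFD (SE 0.50, adjusted p = 0.509). Ccl9 gave -1.35 against DIO-HFD (SE 0.56, adjusted p = 0.339).

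Macrophage markers moved with these 3 genes, in that the same DIO-VSG replicates had the lowest macrophage scores within the group. With the macrophage score as a covariate, the log2 fold change in DIO-VSG against DIO-HFD was -0.46 for Ccl6 (adjusted p = 0.658), -0.45 for Ccl9 (adjusted p = 0.658) and -0.75 for Ccr1 (adjusted p = 0.658), and Ccl9 and Ccr1 kept their unadjusted calls whereas Ccl6 lost it. Leaving out the 4 libraries of lowest B cell score instead gave -1.14 for Ccl6, -0.98 for Ccl9 and -1.24 for Ccr1, and the unadjusted calls of Ccl6 and Ccl9 were lost. With the B cell or the T cell score as a covariate, Ccl6 and Ccl9 lost their calls against DIO-HFD and Ccr1 kept its call. Against DIO-LFD, the calls of Ccl6 and Ccr1 were lost with the T cell score and kept with the B cell and macrophage scores. The part of macrophage content in the result was not tested further.

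**Figure D5:**
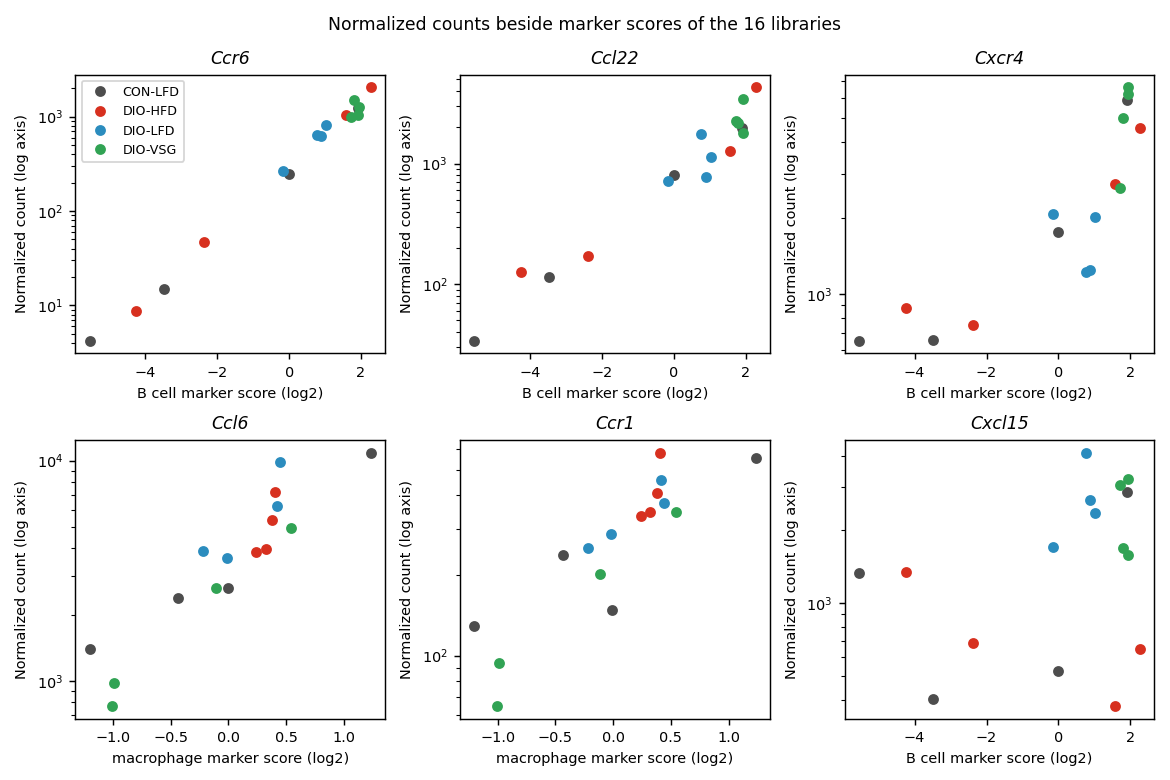
Normalized count (log axis) of 6 genes against a marker score of the same 16 libraries (mean log2 deviation of the markers), colored by group. Ccr6, Ccl22 and Cxcr4 are lowest in the 4 libraries of lowest B cell score, Ccl6 and Ccr1 are lowest where the macrophage score is low, and Cxcl15 spans its range at high B cell scores.

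Other CC ligands of this kind differed less. Ccl8, a ligand abundant in resident macrophages (103 on the same scale), gave -0.22 to 0.72 over the 6 comparisons, with an adjusted p of at least 0.591. Ccl12, the second mouse ligand of Ccr2, was higher in DIO-VSG (162 ± 20.9, SD, n = 4) and DIO-LFD (148 ± 33.8) than in CON-LFD (92.2 ± 54.8), with log2 fold changes of 1.02 (adjusted p = 0.268) and 0.87 (adjusted p = 0.767). The 2 low CON-LFD libraries, 37.1 and 56.3 normalized counts, were again replicates 2 and 4, and without the 4 libraries of lowest B cell score the values were 0.24 (adjusted p = 0.864) and 0.09 (adjusted p = 0.955). Ccl3 and Ccl4, products of activated macrophages, stayed below 62 normalized counts, except for Ccl3 in CON-LFD replicate 4, which reached 298.

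Cxcl14 was the gene of the set with the smallest p of the comparison between the 2 forms of weight loss. It had 6764, 8027, 7471 and 6123 normalized counts in DIO-LFD and 3894, 3358, 3848 and 4903 in DIO-VSG. Every DIO-VSG library was below every DIO-LFD library. All 8 adipocyte markers and all 7 markers of mammary epithelium had a log2 fold change below 0 in the same comparison, with medians of -0.42 for both lists, and 0 of either list passed an unadjusted p of 0.05. Summed adipocyte markers were at 778800 to 1047000 in DIO-VSG and 891500 to 1601000 in DIO-LFD. The part of fat or epithelial content in the Cxcl14 result was not tested. DIO-HFD had 4867, 7955, 5085 and 4757 and CON-LFD 4854, 8741, 5013 and 4102, each with replicate 2 apart from the other 3. By limma, the log2 fold change in DIO-VSG was -0.83 against DIO-LFD (SE 0.22, adjusted p = 0.509, exact permutation p = 0.0286) and -0.48 against DIO-HFD (SE 0.22, adjusted p = 0.374). Without the 4 libraries of lowest B cell score the value against DIO-LFD was -0.83 (adjusted p = 0.0739). Fitted on the 8 libraries of the 2 groups alone, it had an adjusted p of 0.0158. Against DIO-HFD the unadjusted call was lost without the 4 libraries (-0.28, adjusted p = 0.748).

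Ackr3, an atypical receptor that removes Cxcl12, was lower after surgery than in either obese or diet-treated mice. It had 1532, 2514, 2695 and 2238 normalized counts in DIO-HFD, 1959.8, 1475, 4364 and 2575 in DIO-LFD and 734, 1032, 1131 and 1332 in DIO-VSG. No DIO-VSG library reached the lowest library of either group. CON-LFD had 1471, 1033, 1362 and 3857 and overlapped all groups. The log2 fold change in DIO-VSG was -1.09 against DIO-HFD (SE 0.39, adjusted p = 0.305) and -1.21 against DIO-LFD (SE 0.39, adjusted p = 0.509), each with an exact permutation p of 0.0286. Leaving out the 4 libraries of lowest B cell score these were -0.84 (adjusted p = 0.713) and -1.21 (adjusted p = 0.125). Against DIO-HFD the unadjusted call was lost with the T cell score (-0.87, adjusted p = 0.513) and with the macrophage score (-0.64, adjusted p = 0.658) as a covariate. Groups of 4.22% and 5.83% of all genes did not overlap in that direction. Endothelial and stromal progenitor markers moved with Ackr3. In DIO-VSG against DIO-HFD, 0 of 6 endothelial markers were above 0 (median -0.41; Cdh5, Kdr and Tek called lower), and 1 of 5 stromal markers was (median -0.85; Cd34 and Pdgfra called lower). Against DIO-LFD these were 0 of 6 (median -0.45; Kdr and Tek called lower) and 1 of 5 (median -0.52). Summed endothelial markers were at 39590 to 43730 in DIO-VSG, 45490 to 71310 in DIO-HFD and 42120 to 78880 in DIO-LFD, and summed stromal markers at 28860 to 42790, 31970 to 54430 and 21330 to 70950 in the same order. The part of these cells in the Ackr3 result was not tested.

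The other atypical receptors did not pass an unadjusted p of 0.05 in any comparison in the fit of all 16 libraries. Ackr1, which is carried by red cells and venules, ran from 343 to 1323 normalized counts. Its highest library, DIO-LFD replicate 1, also had the highest erythroid score, 3.88 against -1.35 to 0.53 in the other 15, and summed erythroid markers of 241800. The part of red cells in this value was not tested. Ackr1 exons share 25.7% of their bases with Cadm3 on the same strand. Ackr2, a scavenger of inflammatory CC ligands, ran from 114 to 1013, both in CON-LFD. In DIO-VSG against DIO-HFD it gave -0.79 without the 4 libraries of lowest B cell score (adjusted p = 0.7), past an unadjusted p of 0.05, and -0.90 with library weights (adjusted p = 0.0382), where 17.6% of all genes passed adjusted. With the macrophage score as a covariate Ackr2 gave 0.13 (adjusted p = 0.886). Ackr4, the scavenger of Ccl19 and Ccl21, was 277 ± 169 in DIO-HFD and 360 ± 41.6 in CON-LFD (SD, n = 4). Against CON-LFD, Ackr4 passed an unadjusted p of 0.05 with the B cell score (-0.78 in DIO-HFD, adjusted p = 0.239, and -0.80 in DIO-VSG, adjusted p = 0.955) and with the T cell score (-0.72 and -0.79), whereas without the 4 libraries it was 0.11 and -0.30 with no call. Cxcl12, the ligand shared by Ackr3 and Cxcr4, was 19920 ± 4997 in DIO-HFD, 15710 ± 2974 in CON-LFD, 15650 ± 2494 in DIO-LFD and 17220 ± 1339 in DIO-VSG. Its log2 fold change in DIO-HFD against CON-LFD was 0.33 (SE 0.18, adjusted p = 0.476). It was 0.61 without the 4 libraries of lowest B cell score (SE 0.22, adjusted p = 0.602), past an unadjusted p of 0.05, and 0.57 with library weights (adjusted p = 0.0114), where 19.8% of all genes passed an adjusted p of 0.05.

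Cxcr4, the receptor of Cxcl12 on most leukocytes, was highest in DIO-VSG. It had 2069, 2012, 1241 and 1222 normalized counts in DIO-LFD and 6207, 4985, 6609.8 and 2631 in DIO-VSG. The groups did not overlap. CON-LFD had 1756, 652, 5865 and 657 and DIO-HFD 4566, 755, 879 and 2717, with the lowest values in the 4 libraries of lowest B cell score. Its log2 fold change in DIO-VSG was 1.60 against DIO-LFD (SE 0.68, adjusted p = 0.509, exact permutation p = 0.0286), 1.51 against DIO-HFD (adjusted p = 0.373) and 1.73 against CON-LFD (adjusted p = 0.268). Adjusted for the B cell score these were 1.13 (adjusted p = 0.436), 0.51 (adjusted p = 0.684) and 0.31 (adjusted p = 0.97). Without the 4 libraries of lowest B cell score they were 1.60, 0.45 and 0.59, and the unadjusted calls against DIO-HFD and CON-LFD were lost. Against DIO-LFD the unadjusted call was lost with the macrophage score as a covariate. With the T cell score it was kept, at 0.87 (adjusted p = 0.784).

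Cxcr4 was 1 of 13 members whose DIO-VSG and DIO-LFD libraries did not overlap with DIO-VSG higher, against a background of 12.9%. In the other direction 2 members did not overlap, against 5.83%. The 13 were Ccl5, Ccl21b, Ccl22, Ccr4, Ccr6, Ccr8, Ccr9, Cxcl16, Cxcr3, Cxcr4, Cxcr6, Xcl1 and Xcr1. B cell markers were also higher in DIO-VSG than in DIO-LFD without overlap, with summed levels of 93680 to 108900 against 25500 to 57800 normalized counts. T cell markers separated these groups too, with summed levels of 44540 to 70630 against 14040 to 32270, scores of 1.27 to 1.96 against -0.38 to 0.72, and all 15 markers above 0.

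Ccl22, which draws regulatory T cells and Th2 cells through Ccr4, had 716, 1132, 773 and 1748 normalized counts in DIO-LFD and 3443, 2181, 1788 and 2263 in DIO-VSG. The closest libraries of the groups lay 1748 against 1788. In CON-LFD it had 801, 33.9, 1973 and 115 and in DIO-HFD 4313, 172, 126 and 1285, so that the range within each of these groups was wider than the difference between the means of DIO-LFD and DIO-VSG. By limma, the log2 fold change in DIO-VSG against DIO-LFD was 1.20 (SE 1.19, adjusted p = 0.655). Fitted on those 8 libraries alone the SE was 0.31 (adjusted p = 0.0529).

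Ccr6 had 266, 823, 617 and 641 normalized counts in DIO-LFD and 1271, 1482, 1032 and 981 in DIO-VSG, and the groups did not overlap. In CON-LFD it had 244, 4.24, 1239.8 and 15.1 and in DIO-HFD 2049, 46.5, 8.73 and 1041. The 4 lowest libraries of Ccr6 were those of lowest B cell score. The log2 fold change in DIO-VSG was 1.11 against DIO-LFD (SE 1.69, adjusted p = 0.769) and 4.05 against CON-LFD (SE 1.69, adjusted p = 0.268). Adjusted for the B cell score it was -0.24 against DIO-LFD and -0.0005 against CON-LFD (adjusted p = 0.999).

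Ccl5 had 1181, 1378, 1467 and 2842 normalized counts in DIO-LFD and 5235, 3578, 2906 and 3456 in DIO-VSG. As for Ccl22, a single DIO-LFD library, replicate 4, came close to the DIO-VSG range. In the fit of those 8 libraries alone, Ccl5 (1.20, adjusted p = 0.0437), Cxcr4 (1.60, adjusted p = 0.0251), Ccl21b (1.24, adjusted p = 0.0134), Ccr9 (1.39, adjusted p = 0.0158) and, in the other direction, Cxcl14 passed an adjusted limma p of 0.05. In that fit 7.22% of all genes passed, 5.92% higher and 1.3% lower, and the estimate of spread leaves out CON-LFD and DIO-HFD. With the T cell score added to the fit of 16 libraries, the values in this comparison were -0.265 for Ccl21b, -0.056 for Ccr9 and -0.043 for Ccl5. Ccl21b cannot be told apart from its copies, because all of its 76-base words also lie in other genes, among them Ccl21a.

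The receptors of T cells among the 13 had the following levels. Ccr4 was 237 ± 83.8 normalized counts in DIO-VSG and 104 ± 36.7 in DIO-LFD (SD, n = 4). Ccr9, a gut-homing receptor, was 469 ± 32.9 and 185 ± 52.8. Its exons share 18.8% of their bases with a gene on the opposite strand. Ccr8, carried by regulatory and Th2 cells, was 79.2 ± 9.31 and 37.3 ± 17.4. Cxcr3, the receptor of Th1 and cytotoxic cells, was 446 ± 72.1 and 275 ± 88.5, and Cxcr6, carried by resident T and NKT cells, was 680 ± 180 and 355 ± 102. None of these passed an unadjusted limma p of 0.05 in DIO-VSG against DIO-LFD in the fit of all 16 libraries. Adjusted for the T cell score, Ccr8 (-0.102), Ccr9 and Cxcr3 (-0.021) turned below 0.

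Of the ligands among the 13, Cxcl16, which binds Cxcr6, was 2220 ± 419 normalized counts in DIO-VSG and 1495 ± 149 in DIO-LFD, with a log2 fold change of 0.56 (SE 0.37, adjusted p = 0.554). Its exons share 18.3% of their bases with Zmynd15 on the opposite strand. Xcl1, a product of NK and CD8 T cells, had 60.3 to 82.9 against at most 53.6 normalized counts, and Xcr1, its receptor on cross-presenting dendritic cells, was 358 ± 33.5 against 177 ± 93.6. In DIO-VSG against DIO-LFD, Xcl1 gave 0.87 (adjusted p = 0.572) and Xcr1 gave 1.23 (adjusted p = 0.569). Xcl1 exons share 18.7% of their bases with a gene on the opposite strand.

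The interferon-inducible ligands of Cxcr3 had no common pattern. Cxcl9 was lower in DIO-LFD, with 1437, 1599.9, 1404 and 1735 normalized counts, than in CON-LFD, with 2623, 2120.3, 2126 and 1874. These groups did not overlap, against 1.81% of all genes in that direction and 1.73% in the other, in which no member did. Its log2 fold change was -0.50 (SE 0.21, adjusted p = 0.753, exact permutation p = 0.0286), and -0.62 without the 4 libraries of lowest B cell score (adjusted p = 0.607). Cxcl10 stayed between 237 and 438 normalized counts in all libraries except CON-LFD replicate 3 (601) and DIO-LFD replicate 2 (675). Cxcl11, annotated as a polymorphic pseudogene, ran from 36.9 to 119.5, so its RNA need not stand for a working ligand. Its exons share 41.7% of their bases with a gene on the opposite strand.

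The comparison of DIO-VSG with CON-LFD gave the highest count of members, and the count depended on the libraries of low B cell score. Lymphocyte markers were higher in it too, with medians of 3.81 (B cell) and 2.75 (T cell), all 15 of each above 0. Of these, 14 and 11 were called higher (background 10.2%). The 11 higher members were Ccl5, Ccl12, Ccl21b, Ccl22, Ccr4, Ccr6, Ccr9, Cxcl15, Cxcr2, Cxcr4 and Cxcr6, and none of the members had groups free of overlap, against 2.59% of all genes with DIO-VSG higher and 4.43% with DIO-VSG lower. The largest values were those of Ccr6, Ccl22 (3.05, SE 1.19, adjusted p = 0.268), Ccl21b (2.85, SE 1.28, adjusted p = 0.272) and Cxcr2 (2.83, SE 1.08, adjusted p = 0.268). Cxcr2, the neutrophil receptor of Cxcl1 to Cxcl3, had 97.1, 39.2, 508 and 7.03 normalized counts in CON-LFD, compared with 359, 737, 378 and 412 in DIO-VSG. Its lowest libraries over all groups were the 4 of lowest B cell score. Neutrophil markers were higher too, with 6 of 7 above 0 in this comparison (median 2.20) and Camp, Ngp, S100a8 and S100a9 called higher. Summed over 8 markers they were at 748.2 to 1856 in CON-LFD and 953.5 to 8956 in DIO-VSG, and DIO-VSG replicate 2, the highest library of Cxcr2, had the highest neutrophil score, 3.11. Other libraries did not follow that score. CON-LFD replicate 3, with 508 of Cxcr2, had a neutrophil score of -0.47, and DIO-VSG replicate 3, with 378, had -0.36. The part of neutrophil content in the Cxcr2 result was not tested. Without the 4 libraries of lowest B cell score, 1 member was higher (Ccl21b) and 1 lower (Ccl11), against 2.3% and 2.81% of all genes in that fit. Adjusted for the B cell score, 0 were higher and 1 was lower, by limma at an unadjusted p of 0.05, against 2.08% and 2.87%. Without CON-LFD replicate 3, 16 were higher and 3 lower, against 17.9% and 12.6%, and Cxcr2 and Cxcr4 passed an adjusted p of 0.05, as did 4.11% of all genes. Of the 2 lower members, Ccl11 gave -0.87 (adjusted p = 0.268) and Cx3cl1, the membrane-bound ligand of Cx3cr1, gave -0.67 (adjusted p = 0.277).

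The 4 libraries also bear on the other counts, and so do the marker scores. Of the 11 calls in DIO-VSG against DIO-HFD, 5 were kept with the B cell score as covariate, 4 with that of T cells and 5 with that of macrophages, and those of Ccr1, Cxcl1 and Cxcl15 were kept with each. Leaving out the 4 libraries, 3 members were higher (Ccl21b, Ccr4 and Cxcl12) and 0 lower in DIO-HFD against CON-LFD, where 3.11% and 4.43% of all genes were called in the same fit, and all 5 earlier calls were lost. In DIO-VSG against DIO-HFD 1 was higher and 4 lower, against 4.47% and 2.48%, and of the 11 earlier calls those of Ackr3, Ccr1 and Cxcl15 were kept. In DIO-LFD against DIO-HFD 3 were then higher and 15 lower, against 11.0% and 12.2%, and in DIO-VSG against DIO-LFD 12 were higher and 6 lower, against 13.1% and 8.64%, with all 5 earlier calls kept. In DIO-LFD against CON-LFD the 3 higher were Cxcl3, Ccl7 and Cxcl14 in place of Ccl12, Cxcl3 and Cxcl15, against 3.39%. The call of Cxcl3 carries no weight here either, which leaves Ccl7 and Cxcl14. The 1 lower was again Cxcl9, against 4.76%.

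Neither Cx3cr1 nor Ccr2, both receptors of the myeloid lineage, passed in any comparison in the fit of all 16 libraries. Cx3cr1, the receptor of patrolling monocytes and resident macrophages, gave log2 fold changes of -0.01 to 0.42 over the 6 comparisons, with an adjusted p of at least 0.604. In DIO-LFD against DIO-HFD it was -0.89 without the 4 libraries of lowest B cell score (adjusted p = 0.16), past an unadjusted p of 0.05. Ccr2 gave -0.58 to 0.11, and CON-LFD replicate 4 held 6262 normalized counts against 941 to 2785 in the other 15 libraries. It passed an unadjusted p of 0.05 with library weights in DIO-VSG against DIO-HFD (-0.79, adjusted p = 0.105). The same held with the macrophage score in DIO-LFD against CON-LFD (-0.80, adjusted p = 0.744).

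Of the ligands of barrier tissues, Ccl27a, a skin ligand of Ccr10, was the only member called lower at an unadjusted p below 0.05 in DIO-HFD against CON-LFD. It had 327, 349.9, 208 and 288 normalized counts in CON-LFD, compared with 151, 245, 142 and 209 in DIO-HFD, and the groups overlapped. By limma, the log2 fold change was -0.66 (SE 0.22, adjusted p = 0.252), and -0.55 without the 4 libraries of lowest B cell score (adjusted p = 0.602), where the unadjusted call was lost. Of its 76-base words, 32.9% lie in other genes, among them Ccl27b. Ccl17, a ligand of Ccr4 like Ccl22, ran from 1.06 to 105 normalized counts. Ccl28, a mucosal ligand of Ccr10, ran from 6.67 to 70.5, Ccr10 itself from 55.7 to 139 and Cxcl17 from 25.0 to 506, and none of these 3 passed an unadjusted p of 0.05 in any comparison in the fit of all 16 libraries. In DIO-LFD against DIO-HFD, Cxcl17 gave 1.60 without the 4 libraries of lowest B cell score (adjusted p = 0.203), past an unadjusted p of 0.05. With library weights, where 8.54% of all genes passed adjusted in that comparison, Ccl28 gave -1.66 (adjusted p = 0.0351) and Ccr10 gave 0.53 (adjusted p = 0.0878). The largest weight fell on DIO-HFD replicate 4, the highest library of Ccl28, which also stood apart in keratinocyte markers with a score of 5.50 against -1.43 to 2.44 in the other 15 libraries and a summed level of 9958 against at most 959.7 normalized counts. In DIO-HFD against CON-LFD, where Ccl27a was lower, 4 of 4 tested keratinocyte markers were above 0 (median 1.69, 0 called). The part of skin content in these values was not tested. Ccl1, a ligand of Ccr8, did not pass the filter and had at most 21.3.

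The proteins that relay chemokine signals were listed apart from the ligands and receptors, as were chemokine modifiers and relatives. Of 30 signaling partners (G proteins, arrestins, receptor kinases and regulators), 28 were tested, and 0 passed an adjusted limma p of 0.05 in any of the 6 comparisons. At an unadjusted p below 0.05, 2 were higher and 1 lower in DIO-HFD against CON-LFD, against 5.23% and 7.66% of all genes, and 1 was higher and 2 lower in DIO-VSG against DIO-HFD, against 5.05% and 8.12%. The median log2 fold change of the 28 was 0.51 in DIO-VSG against DIO-HFD, with 19 above 0, and 0.54 against DIO-LFD, with 22 above 0, beside medians of 0.02 and -0.02 over all genes. Lymphocyte markers were higher in the same comparisons, with medians of 2.69 and 1.21 for B cells and 2.22 and 1.43 for T cells, all 15 of each above 0, and the part of lymphocyte content in the list was not tested. Arrb1, a beta-arrestin, and Grk5, a receptor kinase, were the 2 lower in DIO-VSG, with log2 fold changes of -0.36 (SE 0.14, adjusted p = 0.315) and -0.66 (SE 0.22, adjusted p = 0.292), and both were also the 2 lower against DIO-LFD (background 5.41%). Grk5 had 1600, 2637, 3139 and 1555 normalized counts in DIO-HFD and 1148, 1350, 1251 and 1719 in DIO-VSG. Its high libraries, DIO-HFD replicates 2 and 3, are among those of lowest B cell score. No value without them is given for this gene. In DIO-VSG against CON-LFD 6 of the 28 were higher and 3 lower, against 10.2% and 7.55%.

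Of 23 modifiers and relatives, all tested, 0 passed an adjusted limma p of 0.05. Mmp12, a macrophage elastase that cleaves chemokines, was the 1 of this list called higher in DIO-HFD than in CON-LFD (background 5.23%), at 876 ± 670 against 274 ± 229 normalized counts (SD, n = 4), with a log2 fold change of 1.69 (SE 0.59, adjusted p = 0.265). It was 166 ± 73.8 in DIO-VSG and 237 ± 116 in DIO-LFD, with log2 fold changes against DIO-HFD of -2.18 (adjusted p = 0.246) and -1.67 (adjusted p = 0.474). In DIO-VSG against DIO-HFD 4 were lower (background 8.12%), Mmp12, Ccrl2, Cmtm3 and Pf4. Ccrl2, a non-signaling receptor that presents chemerin, gave -0.54 (SE 0.17, adjusted p = 0.274), and Pf4, a CXC chemokine of platelets and macrophages, gave -1.47 (SE 0.54, adjusted p = 0.312). Mmp12 had 113, 242, 135 and 607 normalized counts in CON-LFD and 402.5, 951, 1795 and 355 in DIO-HFD, and these groups overlapped. Its high libraries, DIO-HFD replicates 2 and 3, are among those of lowest B cell score, and no value without them is given. Of 15 macrophage markers, 13 were above 0 in DIO-HFD against CON-LFD (median 0.36, Trem2 called higher). In DIO-VSG against DIO-HFD 1 of 15 was above 0 (median -0.64, Trem2 called lower). In DIO-LFD against DIO-HFD 3 of 15 were above 0 (median -0.07, Itgax called lower). The part of macrophage content in the Mmp12 values was not tested.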

How the data were processed

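RNA was measured in 16 libraries (4 per group), grouped and numbered from the sample titles, and no column of per-sample values went unmatched. Per the labels the libraries were stranded total RNA read as paired ends. The methods of the authors name STAR and salmon, whereas the processing notes in the labels name TopHat2 2.0.7 and HTSeq 0.5.3p9 with mm10, so the aligner is uncertain, and counting by strand was not stated. The table deposited by the authors held log2 values, a variance-stabilizing transformation of DESeq2-normalized counts (lowest 5.36, highest 21.85). It was inverted to normalized counts, and division by each library's step gave whole reads (within 0.01) for 100.0% of values, with size factors of 0.9036 to 1.2204.

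Normalized counts plus 1 were put on the log2 scale and fitted with limma-trend (limma 3.58.1 in R 4.3.3), the 4 groups and no other term, over all 16 libraries. A gene was tested if 4 or more libraries had 10 or more normalized counts, which kept 21218. Cxcl5 and Ccl1 did not pass this filter. Tests were two-sided, with Benjamini-Hochberg adjustment over all genes. Fold changes of low genes are understated on this scale. Exact permutation tests compared single genes over the 70 arrangements of 4 against 4 libraries, and 0.0286 is the smallest p they can give. The code was tested on simulated data. P-values measure the spread between mice of this experiment.

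Members and lists were chosen with earlier results of these data known. Named genes were, per comparison, those past an adjusted p of 0.05, those without overlap between groups, the 10 with the smallest p, and a set list of abundant ligands and receptors. Arrb1, Grk5, Mmp12, Ccrl2, Pf4 and single marker genes were named after their values were seen, and other members to account for each gene. Exon lengths came from GENCODE M21 (GRCm38), where all 51 members matched, and promoters from RefSeq, where 39 matched. Alternatives were other pseudocounts, filters, scalings, weights, subsets, marker-score covariates and each library left out. Fits with a T cell or macrophage covariate and without the 4 libraries of lowest B cell score were chosen after seeing the data. The values of 1 member are not reported here, although counts and medians include it. Depth limits the precision mainly of genes near 3 reads.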

Additional observations from a re-analysis of the deposited data

Results flagged for a closer look

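In 196 sets of 4 libraries (49 genes in each of 4 groups), 7 held a library whose gap to its nearest neighbor, as a share of the range, exceeded Dixon's critical value. Such a gap is given by chance in about 1 of 20 sets. Cxcl9 in DIO-VSG replicate 2 stood lowest of its group with 1069 normalized counts (gap 0.97). Ccr2 in DIO-HFD replicate 3 was low with 1147 (gap 0.912), and Ccl17 in CON-LFD replicate 2 was low with 1.06 (gap 0.891). Cxcl10 was high in DIO-LFD replicate 2 with 675 (gap 0.905) and in CON-LFD replicate 3 with 601 (gap 0.859). Cxcl17, a mucosal ligand, was high in DIO-LFD replicate 1 with 506 (gap 0.871), and Cxcl14 was high in DIO-HFD replicate 2 with 7955 (gap 0.87).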

How the results depend on the processing

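Of 1890 values of 70 named member and comparison pairs under 27 alternatives, 1847 kept their direction and side of the adjusted threshold, 26 newly passed it and 17, in 14 pairs, changed sign. At the unadjusted threshold, 191 of 972 values of called pairs lost the call and 89 of 918 others gained it. Counts below are of members at an unadjusted limma p below 0.05 unless called adjusted, and the causes of these shifts were not tested. With library weights, which gave DIO-HFD replicate 4 a weight of 10.924 and the others 0.222 to 2.349, the counts were 16 in DIO-HFD against CON-LFD, 17 in DIO-VSG against DIO-HFD, 7 in DIO-LFD against DIO-HFD, 8 in DIO-VSG against DIO-LFD and 8 in DIO-LFD against CON-LFD, with 37.5%, 33.9%, 26.4%, 25.9% and 17% of all genes. The adjusted counts with weights were 4, 9, 3 and 1 in the first 4 of these and 10 in DIO-VSG against CON-LFD, with 19.8%, 17.6%, 8.54%, 0.867% and 19.9% of all genes, and in DIO-HFD against CON-LFD Ccl2 turned to -0.293 and Cxcl1 to -0.266. With the B cell score as covariate, the counts were 5 in DIO-VSG against DIO-HFD, 5 in DIO-LFD against DIO-HFD and 1 in DIO-VSG against CON-LFD, with 10.3%, 15.9% and 4.96% of all genes. The member medians were then -0.198 in DIO-VSG against CON-LFD and -0.066 in DIO-LFD against CON-LFD, with Ccr6 at -0.241 in DIO-VSG against DIO-LFD and, against CON-LFD, Ccr6 at -0.0005 and Ccr9 at -0.047. With the T cell score, 4 members were counted in DIO-VSG and also 4 in DIO-LFD against DIO-HFD, and 2 in DIO-VSG (median -0.179, Ccr9 -0.043) and 7 in DIO-LFD against CON-LFD, with 10.1%, 15.1%, 5.07% and 11.4% of all genes. In DIO-VSG against DIO-LFD that covariate turned Ccr6 to -0.955, Ccl21b to -0.265, Ccl22 to -0.240, Ccr8 to -0.102, Ccr9 to -0.056, Ccl5 to -0.043 and Cxcr3 to -0.021. With the macrophage score, the counts were 3 in DIO-HFD against CON-LFD and 5 in DIO-VSG against DIO-HFD, with 10.1% and 7.2% of all genes. Without the 4 libraries of lowest B cell score, they were 3 in DIO-HFD and 2 in DIO-VSG against CON-LFD, 5 in DIO-VSG and 18 in DIO-LFD against DIO-HFD (median -0.454, Ccl8 -0.100), and 18 in DIO-VSG against DIO-LFD, against 7.54%, 5.12%, 6.95%, 23.1% and 21.7% of all genes. Cxcl1 was then -0.003 and Ackr4 0.111 in DIO-HFD against CON-LFD, and in DIO-LFD against CON-LFD the median was -0.020 and Ccr6 -0.020. With only the 8 libraries of DIO-VSG and DIO-LFD, 20 passed and 5 passed adjusted, against 25.3% and 7.22% of all genes.

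Leaving out each library in turn gave counts of 3 to 12 in DIO-HFD against CON-LFD (12 without CON-LFD replicate 4; median 0.010 to 0.602), 5 to 26 in DIO-VSG against DIO-HFD (26 without DIO-HFD replicate 1, 5 without DIO-HFD replicate 2 or 3 or DIO-VSG replicate 3; median -0.102 to 0.089), 1 to 4 in DIO-LFD against DIO-HFD (median -0.125 to 0.170), 2 to 6 in DIO-VSG against DIO-LFD (median -0.110 to 0.045), 1 to 19 in DIO-VSG against CON-LFD (1 without CON-LFD replicate 4, 19 without CON-LFD replicate 3; median 0.089 to 0.321) and 1 to 7 in DIO-LFD against CON-LFD (median 0.144 to 0.433). The shares of all genes were 8.53% to 19.7%, 7.47% to 27.5%, 5.95% to 9.21%, 5.11% to 13.3%, 8.95% to 30.5% and 3.96% to 12.5% in the same order, with 12.4%, 27.5%, 8.95% and 30.5% in the fits named for 12, 26, 1 and 19 members. Adjusted counts were 0 to 2 in DIO-VSG against CON-LFD and 0 in the others. The replicate numbers did not pair the samples (24 same-number pairs, r from -0.609 to 0.534, 9 over 0.1). With the replicate block the counts were 4 in DIO-HFD against CON-LFD, 10 in DIO-VSG against DIO-HFD, 2 in DIO-LFD against DIO-HFD, 5 in DIO-VSG against DIO-LFD, 10 in DIO-VSG and 4 in DIO-LFD against CON-LFD, with 0 adjusted and 12%, 11.8%, 7.85%, 8.81%, 16% and 5.77% of all genes.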
